A study of Mus musculus with 4 samples.

Results

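Coregulators are proteins that a DNA-bound transcription factor recruits to switch its target genes on or off. The 9 genes described here encode coregulators that the glucocorticoid receptor (GR) and other nuclear receptors use: the p160 coactivators Ncoa1, Ncoa2 and Ncoa3, the histone acetyltransferases Crebbp and Ep300, the Mediator subunit Med1, the corepressor Ncor1 with its histone deacetylase Hdac3, and the ligand-dependent corepressor Nrip1. They were picked by symbol and are 9 of the 21938 protein-coding genes of mouse. The question asked of the data is whether GR and E2A peaks were called at the genes of these cofactors, and where.

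GR is activated by glucocorticoids, enters the nucleus and binds glucocorticoid response elements (GREs). E2A is the product of Tcf3, whose splice forms E12 and E47 are basic helix-loop-helix factors that bind E-Boxes, sequences of the form CANNTG. The p160 proteins bind agonist-bound nuclear receptors and bring in CBP and p300, the products of Crebbp and Ep300, which acetylate histones. Med1 is the Mediator subunit that contacts nuclear receptors. Ncor1 and Hdac3 act in one repressor complex, and Nrip1, also called RIP140, binds agonist-bound receptors and represses metabolic genes in liver and fat.

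Called peaks of GR and E2A ChIP-Seq were available for 4 samples, 2 replicates for each ChIP, from livers of male wild-type (E47+/+) C57BL/6 mice fed chow and killed at zeitgeber time (ZT) 10 h. The labels call the mice untreated, whereas the study elsewhere describes these peak lists as coming from Dex-treated livers. Whole liver was used, so its cell types are not separated, and the E2A antibody is not described as specific for E47. The descriptions of both E2A samples name a GR ChIP, that of E2A replicate 2 in E47-/- mice, while title, antibody and genotype name E2A in the wild type, and these were followed. File names and labels number the GR replicates in opposite order, and the labels were used.

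The lists held 4291 peaks in GR replicate 1, 7334 in GR replicate 2, 4028 in E2A replicate 1 and 1892 in E2A replicate 2. Promoters held 34.3% of the peaks of GR replicate 1, 57.4% of GR replicate 2, 41.2% of E2A replicate 1 and 37.1% of E2A replicate 2. E2A replicate 2 shared at least 1 bp with E2A replicate 1 at 59.8% of its peaks. With GR replicate 2, the longest list, it did so at 57.9%, and with GR replicate 1 at 40.5%. The lists give no read count or peak height, so the depth behind a peak is unknown, and a gene without a peak is a gene at which none was called. With 2 samples against 2, no exact test of GR against E2A can give a two-sided p below 0.333. The study used the same livers for both ChIPs, but the labels do not tie samples to animals, and 2 pairs could not go below 0.5. The values are therefore given as descriptions.

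The 4 lists assigned 21 peaks to the 9 genes: 3 in GR replicate 1, 10 in GR replicate 2, 4 in E2A replicate 1 and 4 in E2A replicate 2. GR peaks were assigned to 6 genes (Ncoa2, Ncoa3, Ep300, Med1, Ncor1 and Nrip1) and E2A peaks to 4 (Ncoa1, Ncoa2, Ep300 and Nrip1), against 23.8% of all protein-coding genes for GR and 13.9% for E2A. No peak was assigned to Crebbp or Hdac3 in any sample. Of the 21 peaks, 13 lay in promoters, 3 in introns and 5 in distal intergenic sequence. A further 7 peaks assigned to neighbouring genes lay within 50 kb of a coregulator's transcription start site (TSS), the 5' end of the gene in GENCODE M21. Together these 28 peaks formed 17 separate sites.

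**Figure D1:**
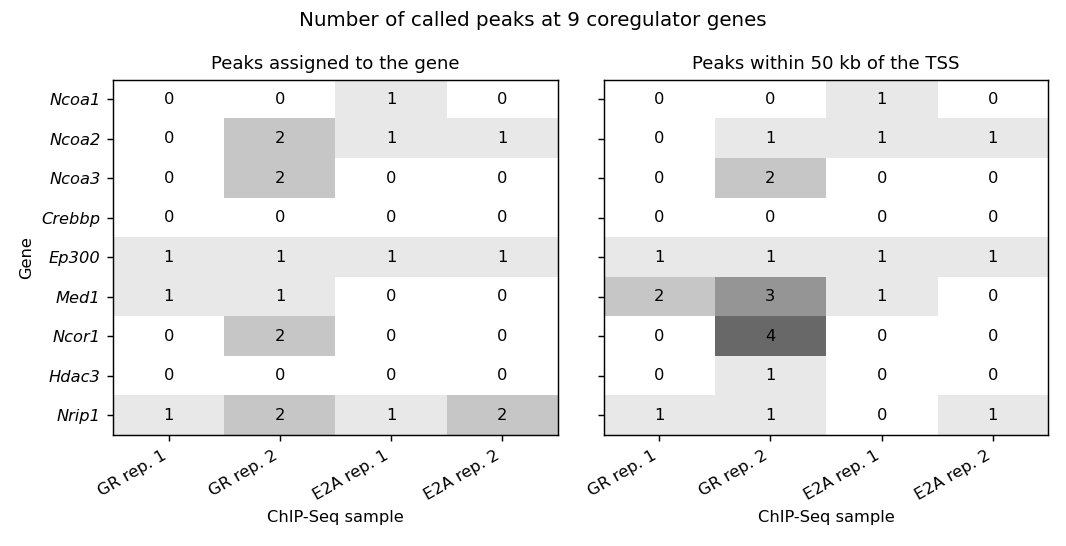
Number of called peaks assigned to each of the 9 genes (left) and lying within 50 kb of its TSS, whichever gene they were assigned to (right), in each ChIP-Seq sample; darker cells hold more peaks. Ep300 has 1 peak in each of the 4 samples, and Crebbp has none.

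Promoter peaks were assigned to 3 of the 9 genes in GR replicate 1, against 6.11% of all protein-coding genes. In GR replicate 2 they were assigned to 6 of the 9, against 17.7% of all genes. For E2A the count was 2 of 9 in each replicate, against 7.08% of all genes in replicate 1 and 2.96% in replicate 2. All genes were counted for these shares, whether or not liver expresses them. Peaks within 50 kb of the TSS were found for 3 of 9 genes in GR replicate 1 (23.6% of all genes), 7 of 9 in GR replicate 2 (41.8%), 4 of 9 in E2A replicate 1 (26.5%) and 3 of 9 in E2A replicate 2 (13.7%). Only at Ncoa2 and Ep300 did both E2A replicates have a peak within this distance.

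Ep300, which encodes p300, was the only one of the 9 genes with a promoter peak in all 4 samples, a pattern found at 0.866% of all protein-coding genes. The gene (ENSMUSG00000055024) lies on the plus strand of chromosome 15 of mm10 from 81585351 to 81652077. GR replicate 1 had its promoter peak at 81584945 to 81585635, and GR replicate 2 at 81584868 to 81585671. The E2A peaks were at 81584890 to 81585579 (replicate 1) and 81585117 to 81585588 (replicate 2). All 4 peaks covered the annotated TSS and had 463 bp in common (81585117 to 81585579). Their centres lay between 21 and 118 bp apart, with the GR pair 21 bp apart and the E2A pair 118 bp apart. The GR peaks were 691 and 804 bp wide and the E2A peaks 690 and 472 bp, each wider than 76.3 to 90.5% of the peaks of its own sample. The deposited distances of -543 to -635 bp refer to another transcript, which starts further into the gene.

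The centre of the Ep300 site is printed because it is the stretch called in every sample. In this and the next sequences, the plus strand of mm10 is given 5′ to 3′, and capitals mark the E-Box CANNTG, the GC box GGGCGG or the CCAAT box CCAAT on either strand. In the Ep300 window 2 GC boxes and 1 CCAAT box lay upstream of the TSS, and neither an E-Box nor a GRE with up to 2 mismatches was found. Over the whole 804 bp of the site there was 1 E-Box, outside this window, and no GRE.
Ep300, chr15:81585199-81585498: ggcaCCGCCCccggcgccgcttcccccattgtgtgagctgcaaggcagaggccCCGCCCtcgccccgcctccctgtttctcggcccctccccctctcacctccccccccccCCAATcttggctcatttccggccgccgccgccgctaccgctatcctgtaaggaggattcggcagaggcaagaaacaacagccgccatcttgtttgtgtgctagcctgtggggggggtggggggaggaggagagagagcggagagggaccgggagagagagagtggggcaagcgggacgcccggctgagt

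Ncoa2 had promoter peaks in both E2A replicates and in GR replicate 2, a combination found at 0.666% of all genes. Ncoa2, also known as GRIP1 or TIF2, works with GR as a coactivator and at some sites as a corepressor. The gene (ENSMUSG00000005886) lies on the minus strand of chromosome 1 from 13139105 to 13374083. E2A replicate 1 had its peak at 13372318 to 13372831 and E2A replicate 2 at 13372597 to 13373064, with 235 bp in common. The GR peak of replicate 2 spanned 13372882 to 13373144, and no GR peak was called there in replicate 1. The 3 peaks did not lie on one point: GR and E2A replicate 2 shared 183 bp (69.6% of the shorter peak), while GR and E2A replicate 1 shared none and were 50 bp apart. They lay 939 to 1252 bp downstream of the most upstream TSS, and the site contained 2 other annotated transcript starts, one of them at 13372439. The GR peak was narrow at 263 bp, with 5.28% of the peaks of its sample narrower, whereas the E2A peaks were wider than 76.1% and 76.0% of theirs. A second GR peak of replicate 2 was assigned to Ncoa2 from 93060 bp upstream (13467143 to 13467490). No other sample had a peak there, and its window held 2 E-Boxes.

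The other p160 genes each had peaks from a single sample. Ncoa3 (ENSMUSG00000027678, SRC-3) lies on the plus strand of chromosome 2 from 165992636 to 166073242 and had 2 peaks, both in GR replicate 2. The promoter peak spanned 165992331 to 165992922 and covered the TSS. The other spanned 165982716 to 165983675, with its near edge 8961 bp upstream of the TSS in intergenic sequence. At 960 bp it was the widest of the 28 peaks. Over its whole length it held 10 E-Boxes and no GRE, and its central window of 300 bp held 2 E-Boxes. The nearest E2A peak was 105656 bp from the Ncoa3 TSS. Promoter peaks in GR replicate 2 and no other sample were found at 9.56% of all genes, and among the 9 this held for Ncoa3 and Ncor1.

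Ncoa1 (ENSMUSG00000020647, SRC-1) showed the opposite combination, with an E2A peak and no GR peak. The gene lies on the minus strand of chromosome 12 from 4247362 to 4477182. Its single peak, in E2A replicate 1, spanned 4463734 to 4464001 in intron 1, 13181 bp downstream of the TSS. It was 268 bp wide, and 0.571% of the peaks of that sample were narrower. The nearest GR peak was 340088 bp from the TSS. The window is printed because it held 2 E-Boxes, CAGTTG and CACCTG, close together. The reverse complement of CACCTG is CAGGTG. It also held 1 CCAAT box and 2 C/EBP matches (TTGCNNAA), which are not in capitals.
Ncoa1 intron 1, chr12:4463718-4464017: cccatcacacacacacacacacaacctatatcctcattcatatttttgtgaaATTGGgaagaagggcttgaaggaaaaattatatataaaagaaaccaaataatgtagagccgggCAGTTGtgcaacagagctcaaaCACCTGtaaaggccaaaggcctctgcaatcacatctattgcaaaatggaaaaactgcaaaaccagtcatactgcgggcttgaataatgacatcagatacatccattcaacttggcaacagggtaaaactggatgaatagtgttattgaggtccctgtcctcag

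Crebbp and Ep300 encode closely related acetyltransferases but differed in all 4 lists. Crebbp (ENSMUSG00000022521, minus strand of chromosome 16, 4081328 to 4213997) had no peak assigned to it, and none lay within 50 kb of its TSS, as was the case for 51.8% of all genes. The nearest GR peak was 136093 bp and the nearest E2A peak 135840 bp from the TSS, both assigned to Trap1 and lying beyond the 3' end of Crebbp. When the 5' end of any annotated Crebbp transcript was taken as a TSS, both GR and E2A had a peak within 50 kb. The promoters of Crebbp and Ncoa1 lacked peaks and were rich in CpG. In the RefSeq windows of 250 bp before to 50 bp after the gene start (mm10), Ncoa1 had 84.7% GC and 49 CpG and Crebbp 82.0% GC and 49 CpG, against medians of 52.7% and 7 over 32851 promoters. Such windows were matched for 6 of the 9 genes. The window of Med1 had 68.3% GC and 22 CpG. That of Ep300 had 72.3% GC and 30 CpG but, at a start further into the gene, met no peak. Ncor1 and Nrip1 had 2 windows each. Those met by GR peaks had 72.3% GC and 36 CpG at Ncor1 and 73.3% GC and 40 CpG at Nrip1, and those met by none had 38.3% GC and 2 CpG and 52.7% GC and 6 CpG.

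Med1 was called at its promoter in both GR replicates and in neither E2A replicate, a pattern shared by Nrip1 and by 2.73% of all genes. Med1 (ENSMUSG00000018160) lies on the minus strand of chromosome 11 from 98152154 to 98193293. GR replicate 1 had the peak at 98193191 to 98193467 and GR replicate 2 at 98193138 to 98193560. Both covered the TSS, the replicate 1 peak lay wholly inside the other, and their centres were 20 bp apart. The replicate 1 peak, at 277 bp, was wider than 14.2% of its sample and the replicate 2 peak, at 423 bp, wider than 53.0% of its own.

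The Med1 locus also had peaks at both neighbouring promoters. At Fbxl20, an F-box protein gene, GR peaks were called in replicate 1 (98149410 to 98149697) and replicate 2 (98149379 to 98149745), 43548 to 43596 bp downstream of the Med1 TSS. At Cdk12, a kinase of elongating RNA polymerase II, a GR peak of replicate 2 (98202684 to 98203165) contained the whole of an E2A peak of replicate 1 (98202817 to 98203114). The Cdk12 site lay 9391 bp upstream of the Med1 TSS and gave the only E2A peak within 50 kb of it. Each of these peaks was assigned to the neighbour in the deposited lists, and none of the 3 promoter sites at this locus held a GRE.
Med1 promoter, chr11:98193180-98193479: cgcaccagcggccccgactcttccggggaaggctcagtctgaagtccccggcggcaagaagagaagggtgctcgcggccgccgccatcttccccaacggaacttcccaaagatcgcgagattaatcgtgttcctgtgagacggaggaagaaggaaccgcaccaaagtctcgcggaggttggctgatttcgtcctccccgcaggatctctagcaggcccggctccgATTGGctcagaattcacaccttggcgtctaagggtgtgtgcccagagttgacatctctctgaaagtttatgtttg
The Med1 window is printed as a promoter called for GR in both replicates without E2A. It held 1 CCAAT box, in the inverted form ATTGG, and no E-Box, GC box or GRE.

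At Nrip1 the promoter was called for GR and a distal site for both factors. The gene (ENSMUSG00000048490) lies on the minus strand of chromosome 16 from 76287400 to 76373827. GR replicate 1 had a promoter peak at 76372847 to 76373117 and GR replicate 2 at 76372803 to 76373233, with centres 36 bp apart. These peaks lay 594 to 710 bp downstream of the most upstream TSS and covered other annotated transcript starts. No E2A peak was called at the promoter. E2A replicate 2 had a peak of 259 bp in intron 2 of 3 (76347967 to 76348225), 25602 bp from the TSS, where no other sample had one.

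The distal Nrip1 site was called in GR replicate 2 (76561049 to 76561361), E2A replicate 1 (76561049 to 76561326) and E2A replicate 2 (76561060 to 76561349), 187222 to 187233 bp upstream of the TSS. The 3 peaks nearly coincided, with centres 1 to 18 bp apart. The sequence below them is a simple repeat: all of the 300 bp window was marked as repeat in the genome file, and an exact run of the unit CTC extended over 182 bp. Only 21 of 10755 sites in the 4 lists (0.195%) held an exact tandem run of at least 60 bp, and the run at Nrip1 was longer than those of 99.9% of sites. The next longest run at the 9 genes was 18 bp. The distal site is therefore given apart from the others, and the part of the repeat in the peak calls was not tested. Its nearest protein-coding gene was Nrip1, and the nearest gene of any type was the long noncoding RNA Gm30726, 12398 bp away.

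The promoter and the distal site of Nrip1 are printed to show this contrast. The promoter window held 3 GC boxes, 2 of which overlap, in capitals. In the distal window the capitals mark the exact CTC run instead.
Nrip1 promoter, chr16:76372833-76373132: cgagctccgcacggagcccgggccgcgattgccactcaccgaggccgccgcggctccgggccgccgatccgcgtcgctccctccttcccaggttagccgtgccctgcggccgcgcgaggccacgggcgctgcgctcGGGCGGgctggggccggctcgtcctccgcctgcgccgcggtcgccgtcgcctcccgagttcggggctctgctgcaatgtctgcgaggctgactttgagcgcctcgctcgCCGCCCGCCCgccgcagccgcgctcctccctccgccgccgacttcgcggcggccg
Nrip1 distal site, chr16:76561044-76561343: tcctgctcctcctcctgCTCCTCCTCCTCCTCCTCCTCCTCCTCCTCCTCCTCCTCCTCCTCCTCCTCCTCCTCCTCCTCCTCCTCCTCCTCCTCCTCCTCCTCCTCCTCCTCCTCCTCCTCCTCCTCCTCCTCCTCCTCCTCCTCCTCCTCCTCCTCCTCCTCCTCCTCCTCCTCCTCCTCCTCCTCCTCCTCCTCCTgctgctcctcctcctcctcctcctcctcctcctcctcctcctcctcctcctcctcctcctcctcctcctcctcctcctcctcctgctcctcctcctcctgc

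**Figure D2:**
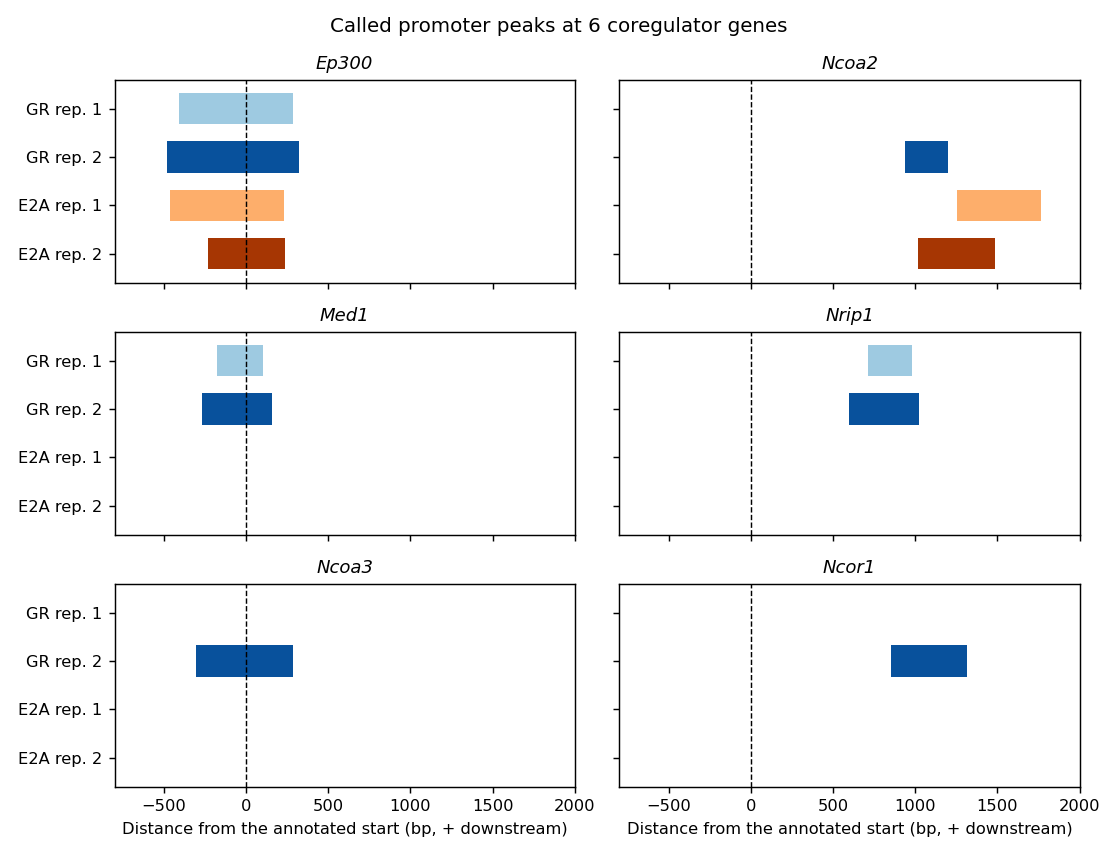
Position of each promoter peak at the 6 genes that had one, in bp from the most upstream annotated TSS in the direction of transcription (dashed line at 0), with 1 row per ChIP-Seq sample. The peaks of Ep300, Med1 and Ncoa3 cross the TSS, and those of Ncoa2, Nrip1 and Ncor1 begin 594 to 1252 bp downstream of it.

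Ncor1 and Hdac3 encode subunits of one corepressor complex. Within 50 kb of their TSSs, GR peaks were called in replicate 2 alone, and no E2A peak was called. The GR peak near Hdac3 was assigned to its neighbour Diaph1. Ncor1 (ENSMUSG00000018501) lies on the minus strand of chromosome 11 from 62316426 to 62458541. Its promoter peak spanned 62457229 to 62457687, 854 bp downstream of the most upstream TSS and over the start of a shorter transcript at 62457332. The TSS of the neighbouring gene Pigl was 1002 bp from the centre of this site, and that of Ncor1 1083 bp. A second peak lay in an intron (62440912 to 62441184), 17357 bp downstream of the most upstream TSS. It was 2397 bp upstream of another annotated Ncor1 start, at 62438515. Another 2 peaks, assigned to an intron of Pigl, spanned 62487983 to 62488238 and 62494888 to 62495293, at 29442 and 36347 bp upstream of the Ncor1 TSS. With 4 peaks Ncor1 had the most GR peaks within 50 kb in this replicate, and all 4 were absent from GR replicate 1. The nearest E2A peak was 381218 bp from the TSS.

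Hdac3 (ENSMUSG00000024454) is the shortest of the 9 genes at 19173 bp, on the minus strand of chromosome 18 from 37935844 to 37955016. No peak was assigned to it. The promoter of Diaph1, at the other end of Hdac3, had a GR peak in replicate 2 (37935209 to 37935584), 19432 bp from the Hdac3 TSS. The nearest E2A peak was 74718 bp away. Hdac3 had the TSSs of 4 other coding genes within 50 kb, Med1 had 2, Ncor1 had 1 and the other 6 genes had none, so the 7 peaks assigned to neighbours all lay at these 3 loci.

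GR and E2A peaks met at 4 of the 17 sites: the promoters of Ep300, Ncoa2 and Cdk12 and the distal repeat at Nrip1. Over all 10755 sites the share was 24.7%. Most sites at the 9 genes came from a single sample, 10 of 17, against 58.7% of all sites. Calls in GR replicate 2 only made up 8 of the 17 sites, against 33.0% of all sites. Sites called in 2 samples numbered 4 (26.5% of all sites), in 3 samples 2 (10.4%) and in 4 samples 1 (4.44%). The distribution over samples was thus near that of all sites, with more from the longest list.

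The 28 peaks were 256 to 960 bp wide with a median of 371.5 bp, against 384 bp for all 17545 peaks. In GR replicate 1 the 4 peaks at these loci had a median of 282.5 bp against 372 bp for the sample, and in GR replicate 2 the 15 peaks had 406 bp against 408 bp. In E2A replicate 1 the 5 peaks had 298 bp against 378 bp, and in E2A replicate 2 the 4 peaks had 379 bp against 349 bp. The widest peak in 3 of the samples was at Ep300. In GR replicate 2 it was the upstream peak of Ncoa3.

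**Figure D3:**
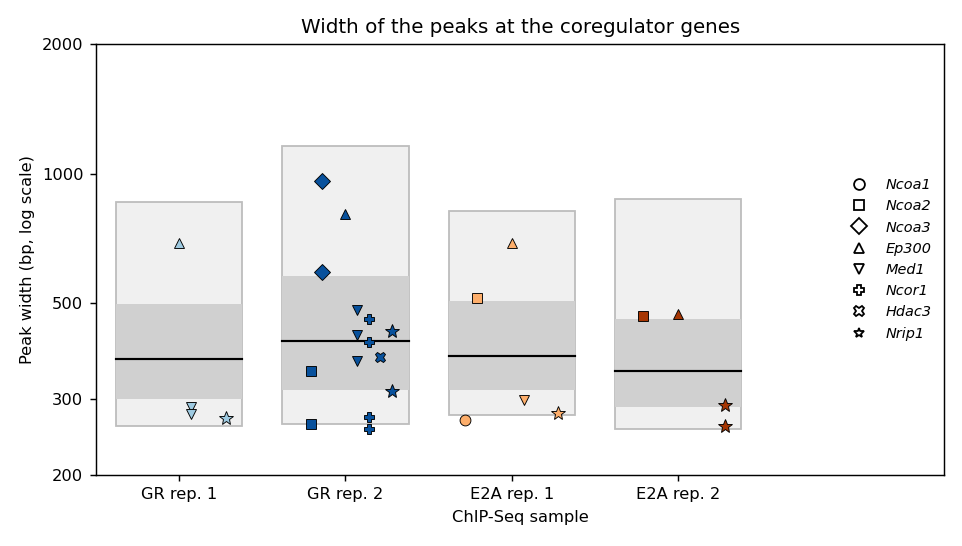
Width in bp (log scale) of each of the 28 peaks at the 9 genes, by ChIP-Seq sample, with 1 symbol per gene. Pale boxes span the 5th to 95th percentile of all peaks of the sample, dark boxes the 25th to 75th, and the line is the median; the Ep300 peaks (472 to 804 bp) lie above the dark box in every sample.

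Motifs were searched in a central window of 300 bp, in the 17 sites and in all 10755 sites alike. No window at the 9 genes held a GRE with up to 2 mismatches, against 21.4% of all sites, 11.5% of promoter sites and 29.9% of other sites. Over their whole lengths, 1 of the 17 sites held such a match. Whole lengths were searched at these sites only, so that count has no share over all sites to set beside it. The central window need not cover each peak of a site, and at Ncoa2 it lay outside the GR peak. The half-site TGTTCT occurred in 1 window, that of the Ncoa3 promoter (21.7% of all sites). An E-Box occurred in 9 of 17 windows (52.9%), against 70.5% of all sites, and the form CAGGTG in 5 (29.4%), against 2156 of the 10755 sites. Windows reach past peaks narrower than 300 bp. The CAGGTG match of the intronic Ncor1 window lay outside the peak, which held 3 of the 4 E-Boxes of that window. The E-Box forms CACGTG and CAGCTG were in none of the 17, against 7.98% and 17.1% of all sites. A window without a match says only that these letters are not in it, and the search covers both strands.

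E-Boxes were found in 3 of the 9 promoter windows (Ncoa2, Fbxl20 and Diaph1) and in 6 of the other 8, against 57.7% of all promoter sites and 81.5% of all other sites. The promoter windows of Ep300, Med1, Nrip1, Ncoa3 and Ncor1 had none, whereas the intronic windows of Ncoa1 and Ncor1 and the intergenic windows of Ncoa2 and Ncoa3 had 2 to 4 each. Both Nrip1 sites outside its promoter had none. The promoter windows were rich in CpG: the 9 promoter sites, neighbours included, had a median of 72.3% GC and 36 CpG, against 67.3% and 28 over all promoter sites. The other 8 sites had 46.7% GC and 4 CpG, against 48.0% and 4. The GC box was in 7 of 17 windows (41.2% against 38.2% of all sites) and CCAAT in 6 (35.3% against 34.2%).

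Other coregulator genes were counted in the same way to place the 9. Among 83 further coregulators, promoter peaks were assigned to 7 in GR replicate 1 (8.43%), 37 in GR replicate 2 (44.6%), 14 in E2A replicate 1 (16.9%) and 6 in E2A replicate 2 (7.23%). The share of all genes was lower than that of these 83 together in each sample. The share of the 9 genes was higher than that of the 83 in each, at 33.3%, 66.7%, 22.2% and 22.2%. Among the 22 other Mediator subunits, 1 and 6 had a promoter peak in GR replicates 1 and 2 and 2 and 1 in E2A replicates 1 and 2. Of the 12 SWI/SNF genes, which encode nucleosome remodellers, 3 and 6 had one for GR and 1 and 0 for E2A. The 7 other corepressors had shares of 14.3% and 71.4% in GR replicates 1 and 2 and 28.6% in each E2A replicate. These shares stand for 1, 5, 2 and 2 genes, too few to rank them against the shares of the 9. The other NCoR complex genes were above the 9 in both E2A replicates, and the other histone deacetylase and coactivator groups in E2A replicate 1. The Mediator, SWI/SNF and acetyl and methyl transferase groups were below the 9 in every sample.

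**Figure D4:**
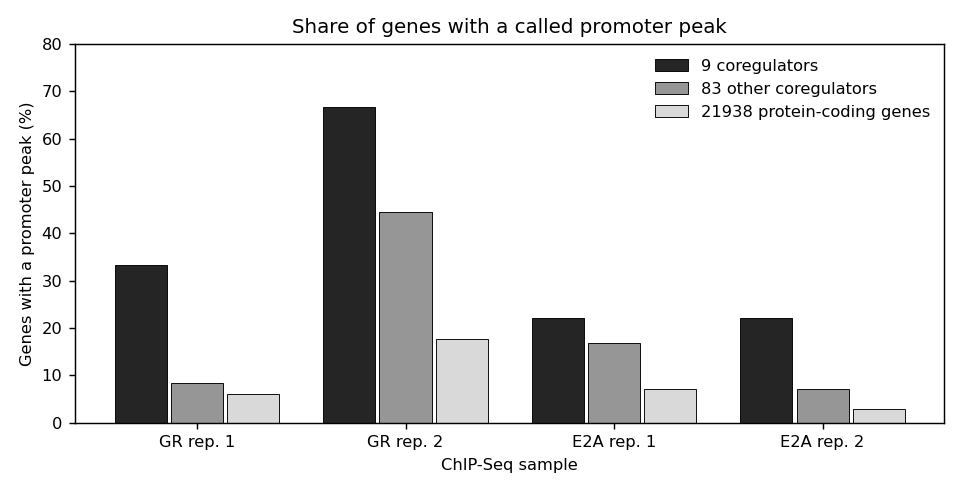
Share of genes in percent with a called promoter peak in each ChIP-Seq sample, for the 9 coregulator genes (black), 83 other coregulators (grey) and all 21938 protein-coding genes (pale). In each sample the bar of the 9 genes is the highest, from 22.2% for E2A to 66.7% in GR replicate 2.

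Among the 9 genes, Ep300 and Nrip1 had peaks assigned in all 4 samples, as did 2.69% of all protein-coding genes. For Nrip1 the peak of E2A replicate 1 was the distal repeat site alone. Of the 83 further genes, 8 did, among them Arid1a, Arid2, Cdk19, Hdac4, Tbl1xr1, Tle1 and Tle3. Promoter peaks in all 4 samples were found at Tbl1xr1, a subunit of the NCoR complex, and Tle1, a Groucho corepressor. The Tbl1xr1 promoter peak was 649 bp wide in GR replicate 1, 1123 bp in GR replicate 2, 977 bp in E2A replicate 1 and 1017 bp in E2A replicate 2.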

How the data were processed

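The data are called peaks of GR and E2A ChIP-Seq in mouse liver. Reads were mapped to mm10 by the authors, stripped of duplicates, downsampled to a fixed number of read pairs per ChIP and passed to peak calling sample by sample. According to the paper, that number was higher for E2A than for GR. The submitters' processing notes name BWA 0.7.13, Picard 1.119 and MACS2 2.1.0, while the paper gives later versions of Picard and MACS2. The control, the threshold and the annotation tool are not given in the sources used here. The deposited lists hold, per peak, its coordinates and width, the nearest gene with the distance to it, and the gene feature, with no normalized value. Whether starts count from 0 or 1 could not be told, so positions may be off by 1 bp.

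A site is a set of peaks of any of the 4 samples that share at least 1 bp. Distances to the TSS and the counts over all genes used GENCODE M21, and sequences came from the RefSeq GRCm38.p6 (mm10) genome. The GRE was matched with up to 2 mismatches and other motifs with none. All 9 genes are named. Other genes are named where a peak within 50 kb was assigned to them, or where they are coregulators with peaks in all 4 samples, and some items under this rule are not reported here. The genes, lists and motifs were chosen with earlier results of these data known. No expression was measured, so tissue markers were not examined. Python 3.11.15 was used with pandas 2.3.3, numpy 2.4.6, pysam 0.24.0 and matplotlib 3.10.9, and the code was tested on simulated peaks.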

Additional observations from a re-analysis of the deposited data

How the results depend on the processing

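Counts of genes and sites were recomputed under each alternative for the 9 genes only, so no share over all genes stands beside them. This gave 62 values, of which 46 stayed within 1.5 times the reported one. Some of these could not move. No peak at the 9 genes was wider than 960 bp, so a limit of at most 2000 bp removed none. Each peak of GR replicate 1 at these genes lay inside one of GR replicate 2, so leaving out GR replicate 1 changed no count. With peaks called in both replicates, GR peaks were assigned to 3 of the 9 genes instead of 6 and lay within 50 kb of 3 instead of 7. E2A peaks then lay within 50 kb of 2 genes instead of 5, GR sites fell to 4 from 15, E2A sites to 3 from 6, and GR met E2A at 1 gene, Ep300, instead of 4.

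Leaving out each replicate in turn gave 3 to 6 genes with an assigned GR peak and 3 to 4 with an assigned E2A peak. Within 50 kb it gave 3 to 7 genes for GR and 3 to 4 for E2A. It gave 4 to 15 GR sites, 4 to 5 E2A sites and 1 to 4 genes where GR met E2A. The low GR values came without GR replicate 2, where Ep300, Med1 and Nrip1 alone kept a GR peak. Without E2A replicate 1, E2A peaks lay within 50 kb of 3 genes instead of 5.

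With peaks of at least 300 bp, E2A peaks were assigned to 2 genes and lay within 50 kb of 2, at 2 sites, and GR met E2A at 1 gene. These are Ep300 and Ncoa2 for E2A and Ep300 for both. With GR replicate 2 limited to its 4291 widest peaks, an alternative chosen after seeing the data, GR met E2A at 2 genes (Ep300 and Med1, the latter at the Cdk12 site). Leaving out sites mostly marked as repeat, also chosen after seeing the data, removed the distal Nrip1 site and left 3 genes where GR met E2A. With the start of any annotated transcript as TSS, peaks of GR and E2A lay within 50 kb of Crebbp, and the counts rose to 8 genes for GR and 6 for E2A. More starts can only widen the search, and the share of all genes under this definition was not computed. The lists hold no heights, so weak and strong peaks could not be told apart, and no paired analysis was possible because the lists give called peaks with no value to pair, and the labels do not tie GR and E2A samples to animals.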
